A study of Mus musculus with 15 samples.

Results

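The unfolded protein and heat shock genes are 34 mouse genes that make, regulate or replace protein-folding machinery. They were taken by name from a list chosen with earlier results of these data known. They fall into 23 genes of the endoplasmic reticulum (ER) and 11 heat shock genes. The ER genes comprise 14 chaperones and folding enzymes, 4 genes of ER-associated degradation and 5 sensors and regulators. The heat shock genes comprise 9 cytosolic members and the 2 subunits of the mitochondrial chaperonin. All 34 were found among the 21689 genes that took up a deposited transcript in at least 1 library, of 55450 annotated genes.

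The unfolded protein response begins when misfolded protein builds up in the ER. Ern1 (IRE1), Eif2ak3 (PERK) and Atf6 sense it, Xbp1 and Atf6 switch on ER chaperones and degradation genes, and PERK slows translation while raising Atf4 and Ddit3 (CHOP). The heat shock response is its cytosolic counterpart, in which heat shock factor switches on HSP70, HSP90, HSP40 and small HSP genes, while the mitochondrial chaperonin folds imported proteins. Growing tumors are known for a heavy load on the ER, through secretion, low oxygen and scarce nutrients.

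RNA sequencing (RNA-seq) covered 15 libraries, 3 in each of 5 groups, all labelled as C57BL/6 mice. The groups were healthy brain without tumor, untreated tumor from GL261, a mouse glioma line, and GL261 tumor given B20.4.1.1, a monoclonal antibody to VEGF-A, in doses of 50, 100 or 200 µg. VEGF-A is the main growth signal for tumor vessels, and the antibody binds and blocks it. The first dose came 10 days after implantation and others followed every 3 days until the endpoint. Tumors were taken as tissue after perfusion, so host cells in them were sequenced too. The labels give neither age nor sex, and no control antibody is named for the untreated group. The samples of a group are described only as individual, so a p-value here measures only how far these samples spread, which may be technical.

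Groups follow the sample titles. The agent tag of replicate 3 disagrees with the title, or is missing where the title names a dose, in all 4 tumor groups, 4 libraries in all. Untreated replicate 3 is tagged 50 µg, 50 µg replicate 3 is tagged 100 µg and 100 µg replicate 3 is tagged 200 µg. For 200 µg replicate 3 the tag is missing. Libraries also differed in assembly and depth. The share of expressed protein-coding genes listed in pieces, with under 0.5 of their exonic length covered, was 5.85% to 7.49% in the 200 µg libraries and 100 µg replicate 3. It was 9.96% to 13.4% in the other tumor libraries except 50 µg replicate 3, which had 28.9%. In brain it was 31.1%, 20.3% and 8.12%. The genes were chosen by their tumor values, so these are not shares of the genes expressed in brain. The number of sequenced fragments is unknown, but coverage per unit of FPKM, which rises with depth, ran from 6.10 in brain replicate 2 to 22.1 in brain replicate 3. It was 6.94 to 7.37 in the untreated tumors and 9.45 to 13.2 in the 200 µg tumors. Neuron markers summed to 2019 to 2912 FPKM in brain and 12.4 to 19.9 FPKM in untreated tumor, and proliferation markers to 2.27 to 5.01 and 304 to 447 FPKM.

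The promoters of these genes hold the sequences through which both responses are known to act, and they are shown because the members that share them can be followed through the results. Windows from 250 bases before to 50 bases after the start site were matched in RefSeq (GRCm38.p6, the assembly of mm10) for 28 of the 34 genes, all but Manf, Hyou1, Atf6, Hspa8, Hsp90aa1 and Hsp90ab1. Both strands were searched. The ER stress response element ERSE, CCAAT and CCACG with 9 free bases between them, is the binding sequence of ATF6 together with NF-Y. It was present in 8 of the 20 ER genes with a window, against 0.137% of all 27025 genes with one. The 9 matches follow, read along the motif, with the fixed letters in capitals.
Hspa5 (chr2:34772025-34772043, plus strand): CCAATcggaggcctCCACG
Hsp90b1 (chr10:86705533-86705551, plus strand): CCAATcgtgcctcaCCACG
Hsp90b1 (chr10:86705638-86705656, minus strand): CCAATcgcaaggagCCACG
Calr (chr8:84847075-84847093, plus strand): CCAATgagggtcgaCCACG
Canx (chr11:50325800-50325818, minus strand): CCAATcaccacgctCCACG
Pdia6 (chr12:17266491-17266509, plus strand): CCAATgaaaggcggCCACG
Creld2 (chr15:88819520-88819538, minus strand): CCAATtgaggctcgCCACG
Dnajc3 (chr14:118937827-118937845, plus strand): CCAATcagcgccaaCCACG
Syvn1 (chr19:6046532-6046550, plus strand): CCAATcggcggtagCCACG

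A shorter variant, ERSE-II, ATTGG and CCACG with 1 free base between them, was present in Herpud1 and Dnajb11, against 0.0444% of all genes with a window. The 2 matches share every fixed letter and differ at the free base.
Herpud1 (chr8:94386377-94386387, plus strand): ATTGGgCCACG
Dnajb11 (chr16:22857852-22857862, plus strand): ATTGGcCCACG
The element TGACGTGG, known from binding by XBP1 and ATF6, was in none of the members' windows and in 0.714% of all genes. The stretch before the start site is given whole for 3 genes, cut where an annotated exon begins. Creld2 is the ERSE gene with the largest tumor difference below, Hsp90b1 has 2 matches, and Herpud1 rose with antibody dose. Each is read along its gene with the motif letters in capitals, so a match on the opposite strand appears as CGTGG followed by ATTGG.
Creld2 (chr15:88819396-88819645, plus strand): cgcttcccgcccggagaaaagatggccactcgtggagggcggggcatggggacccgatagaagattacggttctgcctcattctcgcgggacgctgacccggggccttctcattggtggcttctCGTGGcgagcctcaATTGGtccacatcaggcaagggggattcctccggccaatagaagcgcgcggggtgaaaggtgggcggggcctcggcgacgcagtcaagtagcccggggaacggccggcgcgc
Hsp90b1 (chr10:86705510-86705694, minus strand): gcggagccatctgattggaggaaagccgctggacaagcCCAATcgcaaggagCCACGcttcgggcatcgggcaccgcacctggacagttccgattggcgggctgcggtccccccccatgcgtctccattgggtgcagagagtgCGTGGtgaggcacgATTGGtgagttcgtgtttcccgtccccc
Herpud1 (chr8:94386179-94386428, plus strand): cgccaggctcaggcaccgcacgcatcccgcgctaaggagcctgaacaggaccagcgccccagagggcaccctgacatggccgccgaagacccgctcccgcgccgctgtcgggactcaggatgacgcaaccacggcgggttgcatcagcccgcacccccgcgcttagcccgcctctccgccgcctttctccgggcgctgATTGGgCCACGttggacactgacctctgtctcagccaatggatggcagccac
The window of Dnajb9, the other gene that rose at 200 µg, held none of these motifs.

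Heat shock factor binds inverted repeats of GAA. GAA, TTC and GAA, 3 such units with 2 free bases between neighbors, were present in 3 of the 8 heat shock genes with a window, Hspd1, Hspe1 and Hsph1, and in none of the 20 ER genes, against 0.662% of all genes. The shorter GAANNTTC, the first 2 of these units, was in 7 of the 8, the exception being Dnajb1, against 9.04% of all genes. Hspd1 and Hspe1 stand head to head, with 215 bases between the start sites of these windows, and they share 2 overlapping matches on opposite strands. Another Hspd1 window, at chr1:55088194-55088493, held no match. The GENCODE annotation likewise ends Hspd1 at 55088243, beyond its start of Hspe1 at 55088132. By that annotation the shared matches lie within the Hspd1 gene. Their 18 bases are shown with the letters of both matches in capitals, beside the match in Hsph1, which lies inside the transcribed part.
Hspd1 and Hspe1 (chr1:55088059-55088076, plus strand): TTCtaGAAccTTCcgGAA
Hsph1 (chr5:149636288-149636300, plus strand): GAActTTCcaGAA

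Untreated tumor was compared with healthy brain first, which asks how the 2 tissues differ before any antibody. The ER genes were higher in tumor as a group, whereas the heat shock genes were split, with counts near the shares of all genes given below. Of the 23 ER genes, 17 rose, Sel1l fell and 5 did not pass the test, with a median log2 fold change of 1.51. Of the 11 heat shock genes, 5 rose, 2 fell and 4 did not pass, with a median of -0.12. The test was limma on log2(FPKM + 1), with Benjamini-Hochberg adjustment over all 14864 genes tested and a threshold of 0.05. FPKM is fragments per kilobase of transcript scaled to a library's mapped fragments, and it can be compared between genes because it is per length. Brain and tumor differ widely: 62.3% of all genes tested were called, 33.7% higher and 28.6% lower, and the median gene had a log2 fold change of 0.15. With median-of-ratios scaling of the libraries that median moved to -0.07, and the members split into 20 higher and 6 lower in place of 22 and 3. Dnajb9, Hsp90aa1 and Hspb1 then joined Sel1l, Hspa1a and Hsph1 on the lower side.

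**Figure D1:**
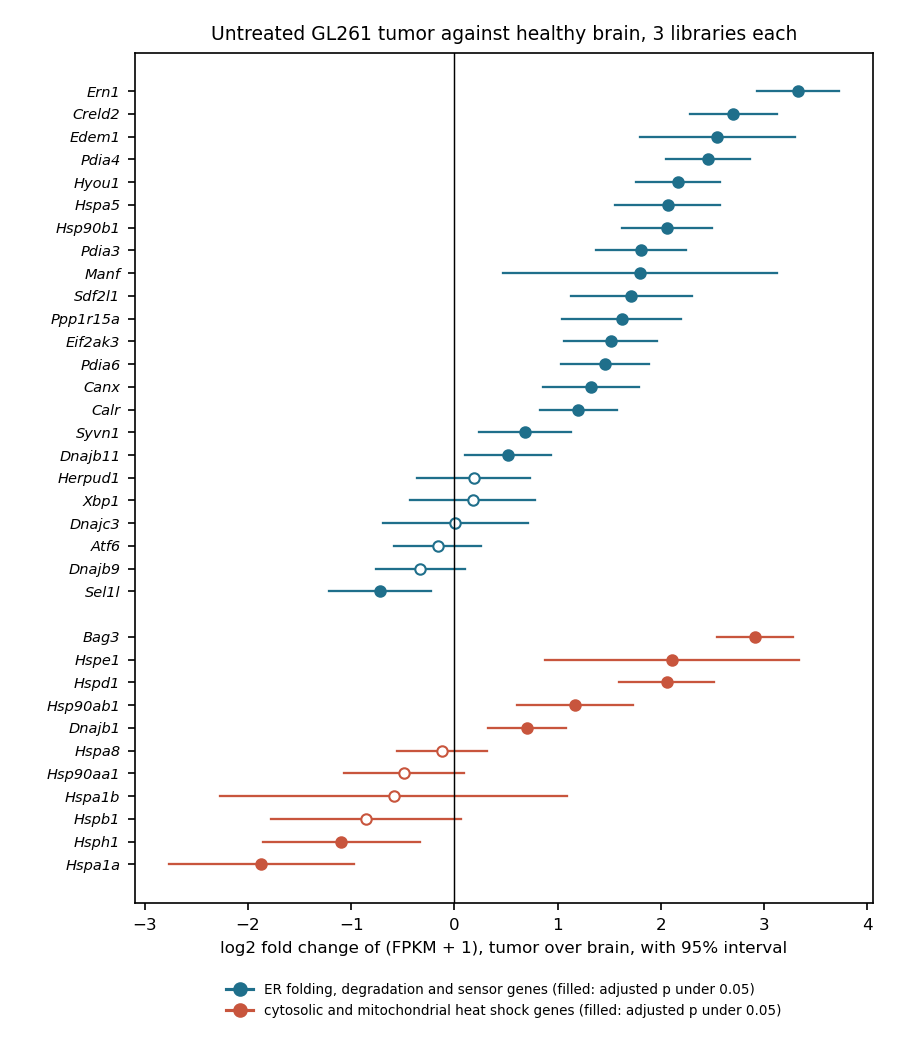
Log2 fold change of (FPKM + 1) in untreated tumor over healthy brain for the 34 genes, 3 libraries each, with 95% intervals from limma. Filled points passed the test at an adjusted p under 0.05: 17 ER genes and 5 heat shock genes lie above 0, and Sel1l, Hspa1a and Hsph1 below it.

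Of the 14 ER chaperones and folding enzymes, 12 rose and none fell. Hspa5 (BiP or GRP78), the main HSP70 of the ER lumen at chr2:34771970-34777547, was listed at 40.7, 54.0 and 39.2 FPKM in brain and at 192, 222 and 157 FPKM in untreated tumor. The lowest tumor library was far above the highest brain library. Its mean was 4.26 times as high, and the log2 fold change was 2.07 (adjusted p = 0.000231, SE 0.21). Hsp90b1 (GRP94), the ER's HSP90, was the most abundant ER member in tumor, at 412 ± 69.7 FPKM (SD, n = 3) against 97.2 ± 8.01 FPKM in brain, with a log2 fold change of 2.06.

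Creld2, a secreted ER protein with thioredoxin-like activity, was listed at 7.20, 7.99 and 9.32 FPKM in brain and at 51.1, 66.3 and 59.0 FPKM in tumor. Its groups stood well apart, with a log2 fold change of 2.70 (adjusted p = 3.67e-05, SE 0.18). The protein disulfide isomerases Pdia4, Pdia3 and Pdia6, which form and shuffle disulfide bonds, had log2 fold changes of 2.46, 1.81 and 1.46. Hyou1, which exchanges nucleotide on BiP, rose by 2.17 on the log2 scale. The lectin chaperones Canx and Calr, which hold newly glycosylated proteins, rose by 1.32 and 1.20. Calr was the most abundant ER member in brain, at 145 ± 6.45 FPKM, and reached 337 ± 38.1 FPKM in tumor (SD, n = 3).

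Sdf2l1, a BiP partner, rose by 1.71 on the log2 scale. Manf, a small secreted ER protein, rose by 1.80 with a wide SE of 0.55: it was listed at 18.7, 17.0 and 8.05 FPKM in brain and at 94.9, 56.2 and 23.6 FPKM in tumor. Its lowest tumor library was only slightly above the highest in brain. Manf transcripts were joined to the neighboring Dcaf1 and Rbm15b in 9 of the 15 libraries, and the call was lost without brain replicate 2 or 3 or untreated replicate 1 or 2 (adjusted p up to 0.0852). It was also lost with the plain sum of FPKM, not weighted by coverage (1.72, adjusted p = 0.196), and when each transcript was counted only for the gene it overlapped most (1.19, adjusted p = 0.644). Dnajb11, a co-chaperone of BiP, had the smallest rise, 0.52 (adjusted p = 0.0362), and lost the call when any of 5 of the 6 libraries was left out (highest adjusted p 0.107).

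The remaining ER co-chaperones behaved differently. Dnajb9 (ERdj4), a J-domain protein that acts with BiP and restrains IRE1, was listed at 14.9, 14.7 and 20.2 FPKM in brain and at 13.8, 12.9 and 11.9 FPKM in tumor. All 3 tumor values lay below the lowest brain value, yet the log2 fold change of -0.33 did not pass (adjusted p = 0.156). Dnajc3 (p58IPK), an inhibitor of PERK, had means of 12.03 and 11.9 FPKM and a log2 fold change of 0.01 (95% interval -0.69 to 0.71). Its sign turned under 6 of the 16 alternative settings.

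The 4 degradation genes did not move together. Edem1, which hands misfolded glycoproteins to degradation, was listed at 6.20, 2.49 and 2.79 FPKM in brain and at 21.6, 26.5 and 29.5 FPKM in tumor. Every tumor library exceeded every brain library by a wide margin, with a log2 fold change of 2.55 (adjusted p = 0.000519, SE 0.31). Syvn1 (HRD1), the ubiquitin ligase of the pathway, rose by 0.68 on the log2 scale (adjusted p = 0.0176). Its values are uncertain, since its transcripts ran on into Mrpl49 in 14 libraries, and its call was lost under 7 of the 16 alternative settings, with an adjusted p of up to 0.509 when all 15 libraries were fitted together. These included the fits without untreated replicate 2 (adjusted p = 0.0578) or 3 (adjusted p = 0.0527).

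Sel1l, the adaptor that HRD1 depends on, went the other way. It was listed at 21.4, 23.4 and 27.3 FPKM in brain and at 13.6, 17.7 and 11.6 FPKM in tumor, with no overlap between the groups. Its log2 fold change was -0.72 (adjusted p = 0.0203, SE 0.20), and the call was lost without brain replicate 2 or without untreated replicate 1 or 3, with an adjusted p of up to 0.0659. Herpud1, which organizes the HRD1 complex, did not pass at 0.19 (adjusted p = 0.497), with 21.4 ± 3.65 FPKM in brain and 24.7 ± 5.41 FPKM in tumor (SD, n = 3).

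Among the 5 sensors and regulators, Ern1 had the largest difference of all 34 genes. The IRE1 kinase and nuclease at chr11:106394650-106487852 was listed at 1.11, 1.04 and 1.37 FPKM in brain and at 23.6, 21.1 and 18.2 FPKM in tumor. The groups were far apart, with a ratio of means of 17.8 and a log2 fold change of 3.33 (adjusted p = 1.60e-05, SE 0.17). Eif2ak3 (PERK) rose by 1.51 on the log2 scale, from 3.96 ± 0.202 to 13.3 ± 2.62 FPKM. With the plain sum of FPKM it was 0.79 and did not pass (adjusted p = 0.135). Ppp1r15a (GADD34), the phosphatase subunit that ends PERK signaling, rose by 1.62.

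The transcription factors Xbp1 and Atf6 did not pass the test. Xbp1 was listed at 30.1, 29.2 and 19.6 FPKM in brain and at 23.3, 37.2 and 29.1 FPKM in tumor, with overlapping ranges and a log2 fold change of 0.18 (adjusted p = 0.565). Atf6 was at 9.41 ± 1.75 and 8.23 ± 0.465 FPKM, a log2 fold change of -0.16 (95% interval -0.59 to 0.26). IRE1 acts on Xbp1 by cutting a very short intron out of its RNA. No cut form was assembled: the shortest Xbp1 intron in any library was 300 bp, while the shortest intron of any gene was 21 to 24 bp in each library. Short introns of other genes do not show that this cut could have been assembled, which was not tested. The absence of the cut form therefore says nothing on IRE1 activity. Ddit3, the CHOP factor downstream of PERK, is not among the 34 and is given for reference. It was listed at 18.2, 21.3 and 14.9 FPKM in brain and at 45.5, 29.8 and 33.6 FPKM in tumor, and rose by 0.96 on the log2 scale (adjusted p = 0.00961).

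The 9 cytosolic heat shock genes gave 3 rises, 2 falls and 4 that did not pass. Bag3, the co-chaperone that couples HSP70 to autophagy, was listed at 3.70, 3.08 and 3.46 FPKM in brain and at 30.1, 35.7 and 31.1 FPKM in tumor. It varied little within either group, and its log2 fold change of 2.91 (adjusted p = 1.87e-05, SE 0.15) was the largest of the heat shock genes. Hsp90ab1, the constitutive cytosolic HSP90 and the most abundant member in tumor, was at 424 ± 83.5 FPKM in brain and 956 ± 199 FPKM in tumor (log2 fold change 1.17, SD with n = 3). With quantile scaling it was 0.54 and did not pass (adjusted p = 0.117), and its transcripts ran on into Slc35b2 in 14 libraries. Dnajb1, an HSP40, rose by 0.70.

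The stress-inducible HSP70 gene Hspa1a was low in both tissues and lower in tumor. It was listed at 6.61, 4.72 and 5.47 FPKM in brain and at 1.43, 0 and 1.37 FPKM in untreated tumor. The ranges were clearly apart, with a log2 fold change of -1.87 (adjusted p = 0.00481, SE 0.37). Its neighbor Hspa1b did not pass (-0.59, adjusted p = 0.486), with 4.87, 4.38 and 0 FPKM in brain and 1.33, 0.543 and 1.58 FPKM in tumor. Without brain replicate 3, the library at 0, it was -1.42 and passed (adjusted p = 0.00690). The 2 genes are 99.2% identical over 2201 aligned bases, so reads may have been divided between them and each value is uncertain.

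Hsph1 (HSP110), a nucleotide exchange factor for HSP70, was listed at 50.0, 49.2 and 47.3 FPKM in brain and at 35.1, 14.2 and 22.1 FPKM in tumor. Brain was tight and tumor scattered, but the ranges did not overlap. The log2 fold change was -1.09 (adjusted p = 0.0222, SE 0.32). The call was lost without any 1 of the brain libraries or without untreated replicate 3, with an adjusted p of up to 0.0625. Hspa8, the constitutive HSP70, was at 515 ± 61.6 FPKM in brain and 476 ± 70.3 FPKM in tumor and did not pass (-0.12, 95% interval -0.56 to 0.32). Nor did Hsp90aa1 (-0.49, adjusted p = 0.122) or the small HSP Hspb1 (-0.86, adjusted p = 0.0914). Hspa8, Hsp90aa1 and Hspb1 have 6, 3 and 2 near-identical copies in the annotation, which can take up their reads.

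The mitochondrial chaperonin subunits rose by about the same amount. Hspd1 (HSP60) was listed at 53.2, 58.8 and 71.7 FPKM in brain and at 300.1, 233 and 239 FPKM in tumor, with a log2 fold change of 2.06 (adjusted p = 0.000151, SE 0.19). Hspe1 (HSP10) was listed at 86.5, 64.4 and 30.3 FPKM in brain and at 429, 154 and 214 FPKM in tumor. Hspd1 was the steadier of the pair, while Hspe1 varied widely within each tissue. The log2 fold change of Hspe1 was 2.11 (SE 0.51, adjusted p = 0.0110). Windows of the 2 genes share the heat shock units shown above, and the genes were assembled as a single transcript in 10 of the 15 libraries. Each gene also has 1 near-identical copy in the annotation, which can take up its reads. When each transcript was counted only for the gene it overlapped most, a setting added after the data were seen, Hspe1 stood at 0.98 and did not pass (adjusted p = 0.791).

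Of the 25 members called in this comparison, 17 were called under all settings in which they were tested, 13 ER and 4 heat shock genes. The other 8 were Dnajb11, Manf, Sel1l, Syvn1, Eif2ak3, Hsp90ab1, Hsph1 and Hspe1. Of the 10 ER genes with an ERSE or ERSE-II in the window, 8 were higher in tumor, the exceptions being Dnajc3 and Herpud1. Of the 10 ER genes with a window and neither element, 7 were higher. Among genes outside the list that hold an ERSE, 7 of the 10 tested were higher and none lower, 3 of them the closely related Xlr3a, Xlr3b and Xlr3c, against the 33.7% of all genes called higher. Alg12, also among the 7, was joined to the member Creld2 in 3 libraries, untreated replicate 1 among them, so it is not independent of the members. Other genes with an ERSE-II gave 3 higher and 2 lower of 8 tested, and other genes with the 3 heat shock units 22 higher and 17 lower of 57.

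In bulk tissue, fewer cells of a type and less RNA per cell cannot be told apart. All 10 neuron markers and 7 of 8 astrocyte markers were lower in tumor, and all 8 proliferation markers were higher. Astrocyte markers summed to 501 to 594 FPKM in brain and 76.2 to 132 FPKM in tumor. Oligodendrocyte markers, of which 5 of 8 fell, summed to 783 to 829 and 118 to 220 FPKM. Choroid plexus markers, of a secretory tissue, varied widely in brain, from 16.6 to 1289 FPKM in sum against 5.03 to 51.2 FPKM in tumor, and 2 of 6 fell. Of 8 endothelial markers 1 rose and 1 fell, of 5 pericyte and fibroblast markers tested 1 rose and 2 fell, and of 3 T cell markers tested Cd3g rose. Microglia and macrophage markers, of which 5 of 10 rose and 1 fell, summed to 71.3 to 79.7 and 192 to 417 FPKM. Plasma and B cell markers, 8 in all, summed to 0 to 1.01 FPKM in brain and 10.4 to 15.4 FPKM in untreated tumor. Of these only Sdc1 passed the filter, and it rose. In the untreated tumors 4 of the 8 were listed at 0 throughout, among them Mzb1, Ms4a1 and Pou2af1. The part of these cell types in the differences above was not tested.

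**Figure D2:**
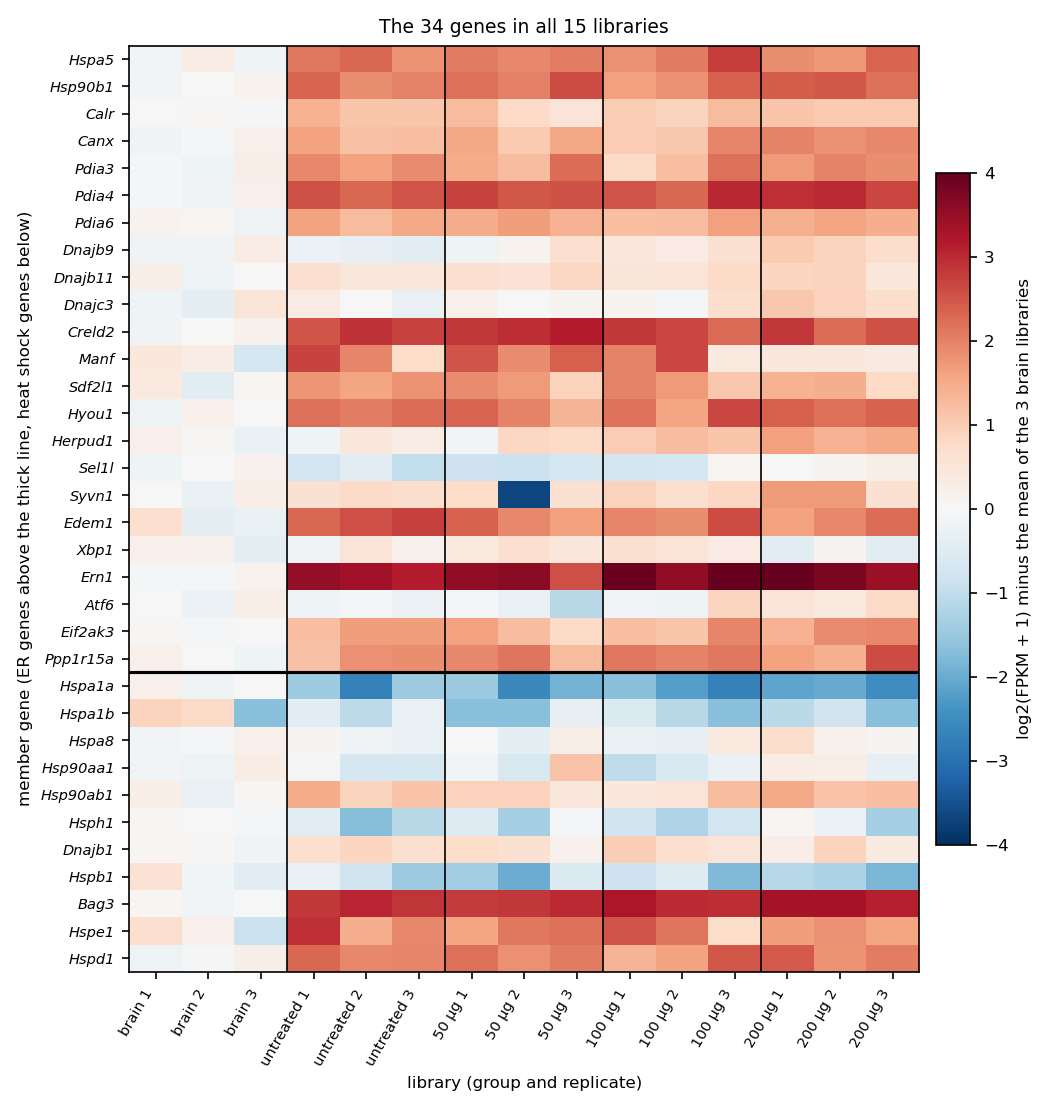
Log2(FPKM + 1) of the 34 genes in the 15 libraries, each minus the mean of the 3 brain libraries, with red above and blue below brain; columns are libraries grouped by title and the thick line separates ER from heat shock genes. Ern1, Bag3 and Creld2 are among the darkest red rows in every tumor group, Hspa1a is blue in all tumor libraries, and Dnajb9, Herpud1, Dnajc3 and Sel1l shift toward red from untreated to 200 µg.

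The other genes of these pathways give the setting, with counts to be read against the 33.7% of all genes called higher and 28.6% called lower. These lists were chosen with earlier results of these data known. Of 26 further ER folding and disulfide genes, 16 rose and 2 fell. Fkbp11, an ER prolyl isomerase, and Serpinh1 (HSP47), the collagen chaperone, rose by 4.07 and 3.61 on the log2 scale. Clgn (calmegin), a calnexin relative, was listed at 2.81 to 3.09 FPKM in brain and at 0 in every tumor library, and Txndc11 fell by 0.79. Of 26 translocon and N-glycosylation genes, 22 rose and 1 fell. The channel subunits Sec61a1 and Sec61g rose by 2.70 and 2.64, and Sec62, an accessory of the channel, fell by 0.73.

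Of 21 further degradation genes tested, 9 rose and 1 fell. Derl1, part of the exit channel, and Edem2, a mannosidase, rose by 1.62 and 1.42, and Ngly1, which strips glycans in the cytosol, fell by 0.98. All 14 genes of the PERK and ATF4 branch were called, 13 of them higher. Trib3, a pseudokinase induced by ATF4, was listed at 0.753, 0 and 0.782 FPKM in brain and at 72.0, 108 and 102 FPKM in tumor. The transcription factor Cebpb rose by 3.69, and Vldlr, a lipoprotein receptor, fell by 0.85. Of 11 further regulators, 7 rose and 1 fell, led by Creb3l2, an ER-anchored transcription factor, at 2.97 and Txnip at 2.40, with Wfs1, an ER membrane protein, at -3.42.

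On the cytosolic side, 27 heat shock factors and further HSP70, HSP40 and small HSP genes gave 5 rises and 10 falls. Bag2 and Hspa14 rose by 1.52 and 1.39, and Hspa12a and Dnaja4 fell by 4.24 and 2.98. Of 18 HSP90 co-chaperones and subunits of the TRiC chaperonin, which folds actin and tubulin, 12 rose and none fell, led by Cct5 at 2.12 and Cct2 at 1.89. Of 11 further mitochondrial chaperones and proteases, 4 rose, among them Lonp1 at 1.42 and Hspa9 (mortalin) at 1.13, and none fell, a share of rises near that of all genes.

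Each antibody dose was then compared with untreated tumor, in a limma fit over all 12 tumor libraries, which asks what VEGF-A blockade changed. The 3 comparisons share the untreated libraries. Hspa1a and Hspa1b were below the filter of a mean of 1 FPKM in tumors, so 32 of the 34 genes were tested. At 200 µg 2 members rose, the ER co-chaperone Dnajb9 and the degradation gene Herpud1, and none fell. Of all 13362 genes, 3.21% were called in either direction and 2.28% were called higher. The median log2 fold change was 0.23 over the 23 ER genes, 0.11 over the 9 heat shock genes tested and 0.04 over all genes.

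Dnajb9, at chr12:44205559-44210326, was listed at 13.8, 12.9 and 11.9 FPKM in untreated tumor, 13.97, 18.1 and 26.5 FPKM at 50 µg, 22.4, 20.8 and 25.6 FPKM at 100 µg and 34.7, 31.3 and 27.2 FPKM at 200 µg. All 100 µg libraries lay above all untreated libraries, and all 200 µg libraries above all of those at 100 µg. The 50 µg libraries spread from untreated to 100 µg levels. Against untreated, the log2 fold change was 0.52 at 50 µg (adjusted p = 0.901), 0.78 at 100 µg (adjusted p = 0.268) and 1.20 at 200 µg (SE 0.22, adjusted p = 0.0237). The 200 µg mean was 2.41 times the untreated mean and, at 31.0 ± 3.79 FPKM (SD, n = 3), lay above the 16.6 ± 3.12 FPKM of healthy brain.

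Herpud1, at chr8:94386438-94395377, was listed at 18.7, 29.2 and 26.2 FPKM in untreated tumor, 19.6, 38.1 and 37.0 FPKM at 50 µg, 44.1, 51.7 and 47.2 FPKM at 100 µg and 68.7, 57.0 and 63.0 FPKM at 200 µg. The ordering was the same as for Dnajb9, with 100 µg above untreated and 200 µg above 100 µg in every library. Its log2 fold change was 0.31 at 50 µg (adjusted p = 0.901), 0.94 at 100 µg (adjusted p = 0.266) and 1.34 at 200 µg (SE 0.26, adjusted p = 0.0265). Its promoter holds an ERSE-II, shown above, whereas the Dnajb9 window held none of the ER motifs searched.

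Both calls at 200 µg depended on the number of libraries and on the value used. Dnajb9 kept a log2 fold change of 1.12 to 1.29 when single libraries were left out but lost the call without any untreated library or without 200 µg replicate 1 or 2 (adjusted p up to 0.102). Herpud1 kept 1.16 to 1.46 and lost the call without any untreated or any 200 µg library (adjusted p up to 0.107). With a plain sum of FPKM the estimates were 1.20 and 1.29 and neither passed (adjusted p = 0.0708 and 0.0690). A term for the 4 least fragmented libraries, those with 5.85% to 7.49% of genes in pieces, left Dnajb9 at 0.96 (adjusted p = 0.381) and Herpud1 at 1.35 (adjusted p = 0.325). They include all at 200 µg, and 100 µg replicate 3, whose agent tag is 200 µg. No value within such libraries alone can therefore be given against untreated tumor, and the term cannot be told apart from the dose. With groups set by the agent tag, Dnajb9 was 1.12 (adjusted p = 0.0347) and Herpud1 1.25 (adjusted p = 0.0637).

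**Figure D3:**
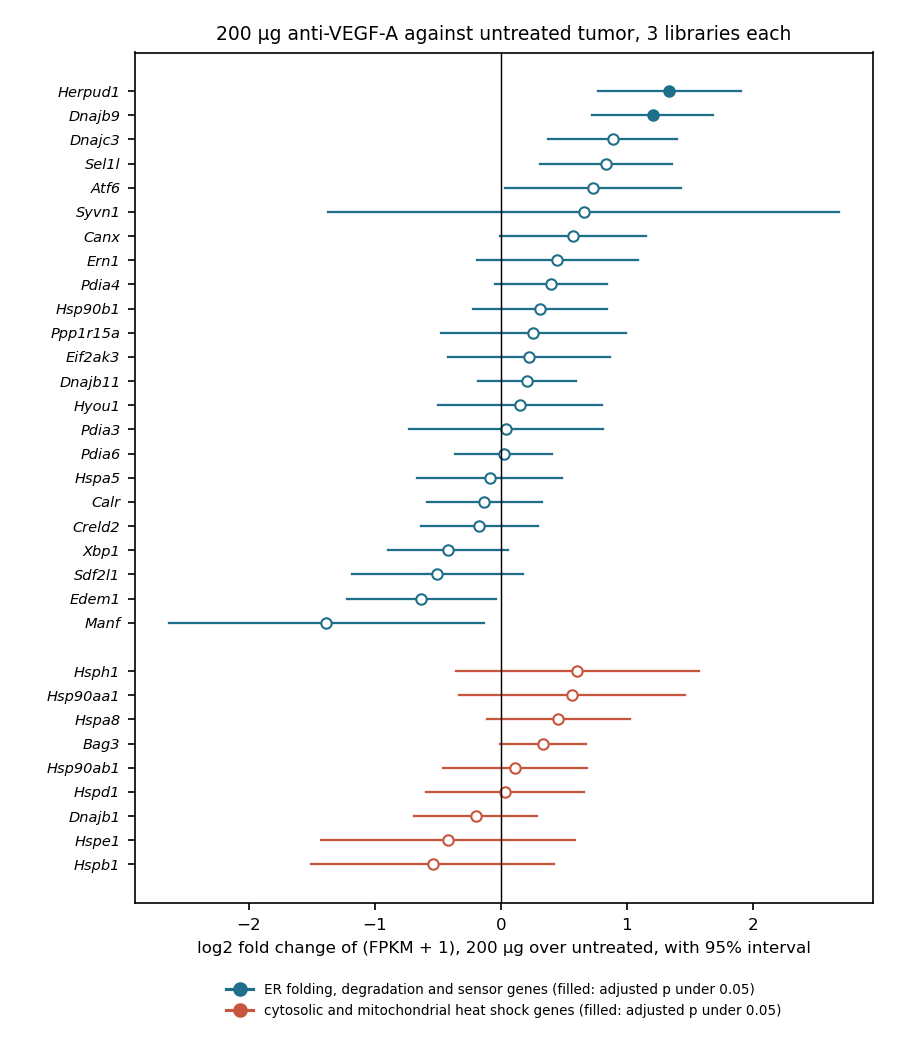
Log2 fold change of (FPKM + 1) at 200 µg over untreated tumor for the 32 genes tested, 3 libraries a group, with 95% intervals from limma over 12 tumor libraries; filled points passed at an adjusted p under 0.05. Herpud1 at 1.34 and Dnajb9 at 1.20 are the filled points, while Hspa5 lies at -0.09 and the heat shock genes between -0.54 and 0.61.

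A linear trend over 0, 50, 100 and 200 µg called 4 members, all higher with dose and all ER genes. Of all genes tested, 8.48% were called in either direction and 5.73% were called higher. The slopes per 100 µg were 0.57 for Dnajb9 (SE 0.10, adjusted p = 0.00954), 0.69 for Herpud1 (SE 0.12, adjusted p = 0.00908), 0.46 for Dnajc3 (SE 0.11, adjusted p = 0.0255) and 0.46 for Sel1l (SE 0.11, adjusted p = 0.0305). Dnajb9 and Herpud1 kept the call without each library in turn, whereas Dnajc3 lost it in 3 cases (untreated replicate 3 and 200 µg replicates 1 and 2) and Sel1l in 6, with adjusted p up to 0.106 and 0.104. No slope passed with the term for the 4 least fragmented libraries.

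Dnajc3 and Sel1l were high in the 4 least fragmented libraries. Dnajc3 was listed at 14.8, 11.6 and 9.17 FPKM in untreated tumor, 13.4, 11.5 and 12.5 FPKM at 50 µg, 12.6, 11.2 and 19.6 FPKM at 100 µg and 25.3, 22.6 and 19.6 FPKM at 200 µg. Sel1l was listed at 13.6, 17.7 and 11.6 FPKM in untreated tumor, 13.0, 12.6 and 14.2 FPKM at 50 µg, 14.1, 14.2 and 25.6 FPKM at 100 µg and 23.6, 25.9 and 28.3 FPKM at 200 µg. In both genes 100 µg replicate 3 sat with the 200 µg libraries, and the other 100 µg libraries with the untreated ones. The agent tag of 100 µg replicate 3 is 200 µg, so fragmentation and dose cannot be told apart in it. In brain too both genes, and Dnajb9, were highest in replicate 3, which had the smallest share in pieces and the highest coverage per FPKM of the brain libraries. The part of fragmentation and depth in these values was not tested. At 200 µg the log2 fold changes were 0.89 for Dnajc3 (adjusted p = 0.0620) and 0.83 for Sel1l (adjusted p = 0.0751). With the term for those libraries they were 0.21 and 0.02, and without 100 µg replicate 3 both passed (adjusted p = 0.0242 and 0.0221).

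**Figure D4:**
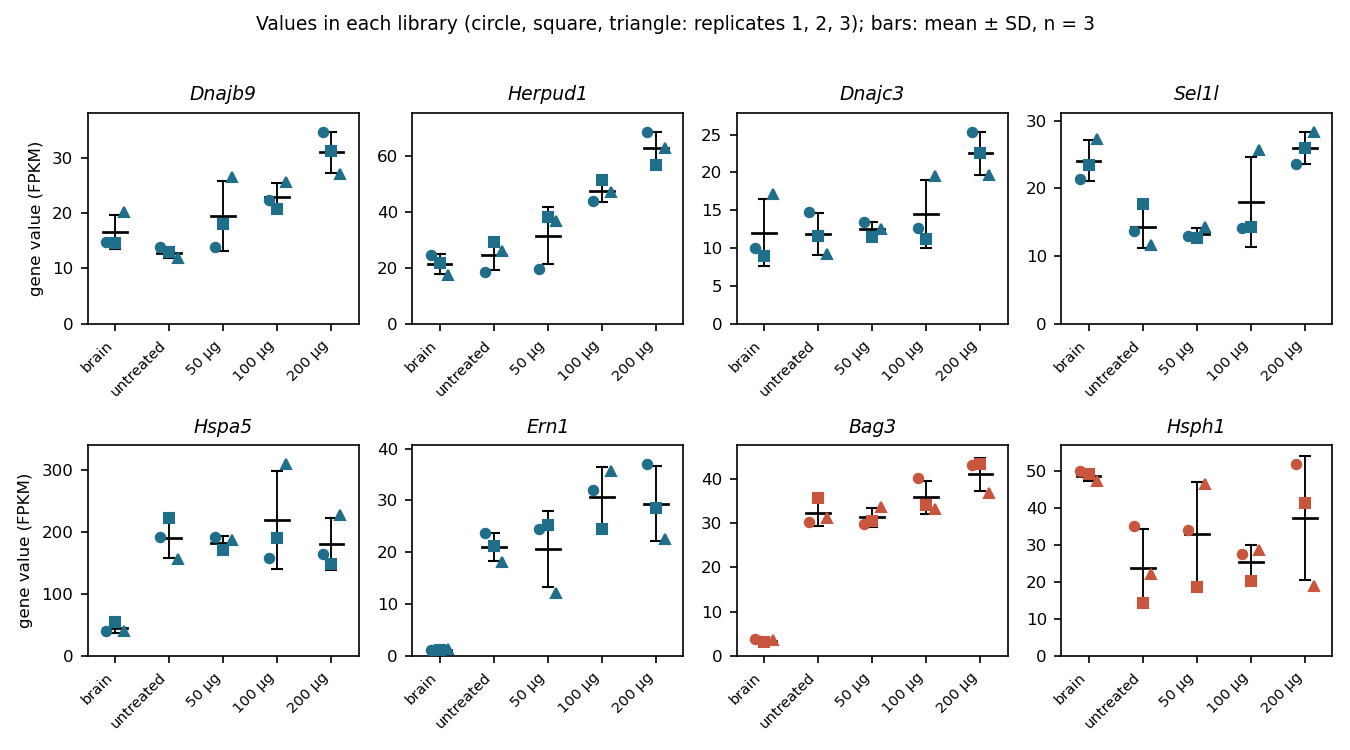
FPKM of 8 genes in each library, by group, with circles, squares and triangles for replicates 1, 2 and 3 and bars for the mean ± SD (n = 3). Dnajb9 and Herpud1 climb through 100 µg (means 22.9 and 47.7) to 200 µg (31.0 and 62.9), Dnajc3 and Sel1l are high at 200 µg and in 100 µg replicate 3, and Hspa5, Ern1 and Bag3 stay far above brain in every tumor group.

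The chaperones that separated tumor from brain did not pass at any dose. Hspa5 was listed at 191, 170 and 186 FPKM at 50 µg, 158, 190 and 309 FPKM at 100 µg and 164, 148 and 227 FPKM at 200 µg, beside 157 to 222 FPKM untreated. Transcripts of Hspa5 ran on into Rabepk in brain replicate 3 and in all 200 µg libraries, but in no untreated library. The part of this joining in its values was not tested. The groups overlapped throughout, and the 200 µg log2 fold change was -0.09 with a 95% interval of -0.67 to 0.49. For Hsp90b1 the interval was -0.22 to 0.84, for Pdia6 -0.36 to 0.41 and for Creld2 -0.64 to 0.29. Sdf2l1, at 30.9, 32.6 and 20.2 FPKM at 200 µg, lay below its untreated 41.0, 35.2 and 41.6 FPKM and did not pass. Canx (0.58, adjusted p = 0.214) and Pdia4 (0.40, adjusted p = 0.255) lay above every untreated library without passing. Both were highest at 100 µg in replicate 3, Canx at 239 FPKM against 123 and 131 and Pdia4 at 131 FPKM against 91.2 and 79.1, and both were highest in brain in replicate 3.

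Manf had the lowest estimate at 200 µg, -1.39 (SE 0.57, adjusted p = 0.173). It was listed at 83.9, 53.1 and 76.9 FPKM at 50 µg, 57.1, 92.1 and 18.3 FPKM at 100 µg and 19.1, 19.0 and 17.7 FPKM at 200 µg. The low values at 100 and 200 µg coincide with the 4 least fragmented libraries, in all of which Manf was joined to its neighbors. It was also joined in untreated replicates 2 and 3, 50 µg replicate 2 and 100 µg replicate 1, at 56.2, 23.6, 53.1 and 57.1 FPKM. With the term for the 4 least fragmented libraries the estimate turned to 0.54. Counting each transcript only for the gene it overlapped most took it to -4.01 (adjusted p = 0.217). Without the 4 libraries of conflicting tag it was -1.89 and passed (adjusted p = 0.0387).

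Among degradation genes and sensors, Edem1 was listed at 22.3, 16.3 and 13.2 FPKM at 50 µg, 16.9, 15.4 and 26.8 FPKM at 100 µg and 12.8, 16.2 and 20.4 FPKM at 200 µg. It was below every untreated library at 200 µg, with a log2 fold change of -0.63 (adjusted p = 0.184). Ern1 was listed at 24.5, 25.3 and 12.1 FPKM at 50 µg, 32.0, 24.5 and 35.6 FPKM at 100 µg and 36.9, 28.5 and 22.6 FPKM at 200 µg, above brain in every tumor library. Its 200 µg estimate was 0.45 (95% interval -0.19 to 1.09). Atf6 was above every untreated library at 200 µg, at 0.73 (adjusted p = 0.194), and passed when only the 6 libraries of the 2 groups were fitted. At 100 µg it was listed at 8.65, 8.16 and 17.9 FPKM, highest in the least fragmented library of that dose, and brain replicate 3 was the highest brain library.

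Xbp1 was listed at 34.4, 40.5 and 34.9 FPKM at 50 µg, 40.3, 37.8 and 32.9 FPKM at 100 µg and 18.9, 28.1 and 19.1 FPKM at 200 µg. The estimates were 0.31, 0.32 and -0.42, none of which passed, and its transcripts ran on into Ccdc117 in all 200 µg libraries and in 100 µg replicate 3. Across libraries, the best-covering Syvn1 transcript reached as little as 0.0128 of the gene's exonic length. Its gene value, FPKM weighted by the share covered, was 0.0237 in 50 µg replicate 2 and between 18.8 and 41.7 in the other tumor libraries. That single value, in the library where Syvn1 was not joined to Mrpl49, gives its 50 µg estimate of -1.46 an SE of 0.92.

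No heat shock gene passed at any dose. At 200 µg the 9 estimates ran from -0.54 for Hspb1 to 0.61 for Hsph1. Hspa8 and Bag3 lay above every untreated library, at 0.46 (adjusted p = 0.303) and 0.33 (adjusted p = 0.221). Bag3 was listed at 29.7, 30.4 and 33.7 FPKM at 50 µg, 40.2, 34.01 and 33.2 FPKM at 100 µg and 43.1, 43.2 and 36.7 FPKM at 200 µg, all far above brain. Hsph1 ranged from 18.9 to 51.9 FPKM within the 200 µg group alone, wider than the gap between its brain and untreated means. Hspd1 and Hspe1 had estimates of 0.03 and -0.42. Hspa1a and Hspa1b reached at most 1.43 and 1.58 FPKM in any tumor library.

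At the lower doses limma called no member. At 50 µg it called none of all genes tested, and 1 member, Dnajb9, had an unadjusted p under 0.05, against 3.89% of all genes. Edem1 had the next smallest p (-0.58, adjusted p = 0.901). At 100 µg it called 0.0748% of all genes, and 2 members, Herpud1 and Dnajb9, had an unadjusted p under 0.05, against 9.17% of all genes. The count stayed at 0 for both doses under each of 26 alternative settings by limma. In terms of separation, 9 of the 32 members lay above all untreated libraries at 200 µg and 3 below, against 22% and 17.2% of all genes.

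Outside the list, the PERK and ATF4 branch held most of the pathway genes called at 200 µg. There 5 of 14 rose and none fell, against 2.28% of all genes called higher: Nupr1, a stress-induced chromatin protein, by 2.03, Atf5 by 1.55, Vldlr by 1.51, Asns, asparagine synthetase, by 0.94 and Cebpg by 0.88. The list was chosen with earlier results of these data known, so these counts describe it and are not independent support. The calls were not followed gene by gene through the alternative settings. At 100 µg none of the 14 passed, and 8 had an unadjusted p under 0.05, against 9.17% of all genes. Atf5 was listed at 59.6, 50.7 and 44.6 FPKM untreated and at 169, 141 and 147 FPKM at 200 µg, and Nupr1 at 43.7, 23.7 and 28.1 and at 162, 157 and 84.0 FPKM. Ddit3 did not pass, at 45.5, 29.8 and 33.6 FPKM untreated, 32.1, 37.7 and 30.4 FPKM at 50 µg, 34.2, 41.3 and 47.9 FPKM at 100 µg and 44.7, 54.9 and 42.3 FPKM at 200 µg (0.39, adjusted p = 0.278). Creb3l2 rose by 0.92 (adjusted p = 0.0322). None of the other 25 ER folding, 26 translocon, 21 degradation, 26 heat shock, 18 co-chaperone and 11 mitochondrial genes tested was called at 200 µg, although 8, 9, 5, 10, 1 and 2 of them had an unadjusted p under 0.05, against 23.7% of all genes.

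With the linear trend, 6 of the 14 PERK and ATF4 genes rose, the same 5 and Chac1, a glutathione-degrading enzyme, against 5.73% of all genes called higher. The limits given for the counts at 200 µg hold here too. Also rising were Hspa13, a microsomal HSP70 relative, with a slope of 0.43, Hspa9 with 0.44, and the translocon genes Sec63 and Ssr3 with 0.37 and 0.32. Sec61g and Ddost, a subunit of the oligosaccharyltransferase, fell by 1.07 and 0.44 per 100 µg. Oligodendrocyte markers, which move with dose as well, summed to 118 to 220 FPKM untreated and to 82.7 to 83.7 FPKM at 200 µg. Of the 7 tested, 2 fell at 200 µg and 3 in the trend. Microglia and macrophage markers summed to 192 to 417 and 223 to 289 FPKM, and 1 of 10, Tmem119, fell in both. The astrocyte marker Slc1a3 rose at 200 µg by 1.03 and in the trend, the choroid plexus marker Ttr fell by 4.45 at 200 µg and in the trend, and the T cell marker Cd3g rose in the trend. Immediate early genes, which respond rapidly to many stimuli, summed to 421 to 679 and 520 to 1211 FPKM, and 1 of 13, Ier3, rose at 200 µg. Their part in the members' changes was not tested.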

How the data were processed

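RNA-seq of 15 libraries was used. The tools named in the submitters' processing notes are STAR and Cufflinks, on mm10; versions and parameters are not given in the sources used here. For every library the authors deposited a transcript table, with exons, FPKM in an attribute column and a score column that was not used. Each library was assembled apart and without gene names, so neighboring genes can be joined and sparse genes broken into pieces. FPKM values are shares of a library. Depth in fragments is unknown.

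A gene's value was the sum, over transcripts on its GENCODE M21 basic exons, of FPKM times the share of its exonic length covered, strand ignored (bedtools 2.31.1). Single-exon transcripts under 200 bp were set aside. Tests used limma 3.58.1 in R 4.3.3 on log2(FPKM + 1), which understates changes of low genes, with a mean of at least 1 FPKM and Benjamini-Hochberg adjustment over all genes tested. Tumor against brain used 6 libraries, the dose contrasts a single fit of 12 tumor libraries, and the trend a fit of its own. These are 5 comparisons. The limma script was tested on simulated data. Near-identical copies were found with BLAST 2.17.0, at 95% identity over at least 300 bases.

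The members and lists were chosen with earlier results of these data known. The rule for printed values took members called between tumor groups, the 3 largest rises and falls per main group against brain, the 2 smallest p-values per dose, and Hspa5, Xbp1 and Ddit3. From other lists it took the 2 largest called changes each way. Values of further members, Asns, Cebpg, Vldlr, Chac1 and the single markers were added after they were seen. Alternatives were the value, pseudocount, filter, scaling, limma options, replicate block, agent tag and left-out libraries.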

Additional observations from a re-analysis of the deposited data

How the results depend on the processing

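The count of members called against brain, 25, ran from 21 to 26 over 16 alternative settings and from 21 to 24 without single libraries. Signs turned for genes that were never called: Dnajc3 was -0.28 with the plain FPKM sum, -0.12 with quantile scaling, -0.21 with median-of-ratios scaling and -0.16 to 0.28 without single libraries. With median-of-ratios scaling Herpud1 was -0.045 and Xbp1 -0.058, and Xbp1 was -0.015 to 0.34 without single libraries, lowest without brain replicate 3. The counts of 0 at 50 and 100 µg did not move. There Sel1l turned to 0.36 at 50 µg with the plain FPKM sum and ran from -0.21 to 0.071 without single libraries, highest without untreated replicate 2. Grouped by agent tag, Dnajc3 turned to -0.21 at 50 µg and -0.11 at 100 µg, and Sel1l to -0.12 at 100 µg. Without the 4 libraries of conflicting tag they stood at -0.073, -0.13 and -0.13, and Dnajc3 ran from -0.070 to 0.25 at 50 µg without single libraries, lowest without untreated replicate 3.

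At 200 µg the count of 2 became 0 with the plain FPKM sum, 0 with a term for the 4 least fragmented libraries, 1 by agent tag, 5 with only the 6 libraries compared and 5 without 50 µg replicate 3 and 100 µg replicate 3, a setting chosen after seeing the data. It ran from 0 to 4 without single libraries. The trend count of 4 became 2 with the plain FPKM sum, 2 without the 4 libraries of conflicting tag and 0 with the term for fragmentation, and ran from 2 to 5 without single libraries. Manf turned to 0.54 at 200 µg and 0.35 in the trend with that term. All genes called at 200 µg by limma, 429, became 53, 38, 301, 1678 and 2276 in the order of settings above. The cause was not tested, beyond the change in libraries or genes that each setting makes.

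Replicate numbers showed no clear pairing of the samples. Correlations of same-numbered deviations were -0.07 to 0.26, with 5 of 30 over 0.1, and those of other pairs -0.22 to 0.21. A replicate block gave 24, 0, 0, 2 and 4 members called in the 5 comparisons. Depth in fragments is unknown, so no limit of detection can be given.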
